A study of Saccharomyces cerevisiae with 8 samples.

Results

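The internal transcribed spacer 2 (ITS2) is the stretch of yeast rRNA precursor that separates 5.8S rRNA from 25S rRNA, and it was analysed here as it stands in 27SB-preLSUs, the intermediate nuclear precursors of the large ribosomal subunit (LSU). Its members are all 232 nucleotides that the deposited table assigns to ITS2, out of 10000 nucleotides listed for the rDNA region. In the R64 genome the first annotated copy (ITS2-1) lies on the reverse strand of chromosome XII from 455182 to 455413, between RDN58-1 (455414 to 455571) and RDN25-1 (451786 to 455181). A second annotated copy (ITS2-2, 464319 to 464550) has the same length, and since the table lists the rDNA region once, copies of the repeat are not told apart. ITS2 nucleotides are counted from 1 at the 5.8S border to 232 at the 25S border.

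The 27SB-preLSUs were affinity purified from 6 litre cultures via Noc3-TAP, from S288c derived strains that expressed MNase-HA-rpL5, MNase-HA-rpL27, MNase-HA-rpL35 or no MNase fusion. The fusions were made from plasmids under the RPS28 promoter and were the only source of the respective ribosomal protein, while the strains with no MNase kept untagged ribosomal proteins and the TAP tag. Calcium was added to the purified particles to activate the nuclease, and also to those of the strains with no MNase. The 5’ ends were then read out by random primer extension and paired end sequencing. The same 4 conditions were prepared from 2 litre cultures via Lsg1-TAP and represent late cytoplasmic 25S-preLSUs, for a total of 8 libraries. Each condition is 1 library, so no spread between replicates can be given and no test was run.

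ITS2 is removed in steps during LSU maturation. The endonuclease Las1 cuts the spacer at site C2, the RNA exosome then trims the 3’ extension of the 7S precursor towards mature 5.8S rRNA, and the 5’ exonuclease Rat1 trims the other product towards mature 25S rRNA. Several biogenesis factors, among them Cic1, Nop15 and Rlp7, bind the spacer in a foot-like structure. RpL35 contacts 5.8S rRNA near the polypeptide exit tunnel, rpL27 binds near domain III of 25S rRNA towards the subunit interface, and rpL5 binds 5S rRNA in the central protuberance. Micrococcal nuclease (MNase) needs calcium and prefers accessible single stranded RNA. Each cut leaves a new 5’ end at which reverse transcription stops, and the termination to coverage ratio (TCR) states, out of all cDNA fragments over a nucleotide, the share with their end at it.

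The study also read this spacer with labelled oligonucleotides, and the stretches of precursor that 3 of them recognise are shown as they give the precursor's sequence at the places probed. O210 was the probe for a fragment that reaches from 5.8S rRNA into the 5’ part of ITS2, O3840 probed the central part and also primed reverse transcription, and O3910 was a second primer for the spacer. Given is the reverse complement of each oligonucleotide in DNA letters, 5’ to 3’, which is the strand of the precursor itself. The coordinates of these stretches were not analysed here, so a stretch may also hold bases of the neighbouring rRNA.
O210 target: taacttgaaattgctggcc
O3840 target: actgagcgtattggaacgttatc
O3910 target: gttcttaaagtttgacctca

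Most of the spacer gave few stops. The median TCR over the 232 nucleotides was 0.214% for MNase-rpL5, 0.242% for MNase-rpL27 and 0.146% for MNase-rpL35, against 0.221% with no MNase. The noise estimate, which is the highest simulated TCR nearby, had a median of 1.54% in ITS2 and ranged from 0.788% to 6.82%. In 25S rRNA of the same libraries the median noise was 1.07%, and in 5.8S rRNA it was 3.56%. Single nucleotides above this noise numbered 25 for MNase-rpL5, 25 for MNase-rpL27 and 20 for MNase-rpL35, against 20 with no MNase. These were 10.8%, 10.8% and 8.62% of ITS2 with the fusions, against 8.62% with no MNase. In 25S rRNA the shares were lower, at 5.59%, 6.92% and 5.01% with the same fusions, against 6.65% with no MNase. In 5.8S rRNA they were lower than in ITS2 with each fusion, at most 7.59% (MNase-rpL35), but 10.8% with no MNase. The higher share in ITS2 than in 25S rRNA thus held with no MNase as well. The table gives ratios with no coverage beside them. How many fragments a ratio rests on is therefore unknown, and no interval can be given. The libraries also differed outside the spacer. Of the 3396 nucleotides of 25S rRNA, 1049 were listed at 0 with MNase-rpL5 and 1020 with MNase-rpL35, against 1354 with MNase-rpL27 and 1327 with no MNase.

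To allow for trimming or addition of a nucleotide, TCR values below are given for a window of 3 nucleotides, as the probability of a stop at the named nucleotide or at either direct neighbour, unless a single nucleotide is named. A site was called where the window TCR reached 15% and exceeded both 5 times the noise and 5 times its value with no MNase. The noise is a value of single nucleotides, so windows pass it more readily. In ITS2 with MNase-rpL5, 25 single nucleotides and 71 windows were above it. Of the 230 ITS2 nucleotides tested, 1 was the centre of a called window for MNase-rpL5 (0.435%), 7 for MNase-rpL27 (3.04%) and 3 for MNase-rpL35 (1.30%). Over the 3758 nucleotides tested in 5.8S rRNA, ITS2 and 25S rRNA, the shares were 0.106% for MNase-rpL5, 0.239% for MNase-rpL27 and 0.399% for MNase-rpL35. Of the 9 windows called with MNase-rpL27 in all of this RNA, 7 were thus in the spacer. With MNase-rpL35 the share in 5.8S rRNA was higher than in ITS2, at 2.58% of 155 nucleotides. With MNase-rpL5 and MNase-rpL27 it was 0 in 5.8S rRNA. Neighbouring windows overlap, so 1 stop can give several called windows. After windows within 2 nucleotides were joined, the calls in ITS2 formed 1 site for MNase-rpL5, 2 for MNase-rpL27 and 1 for MNase-rpL35.

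**Figure D1:**
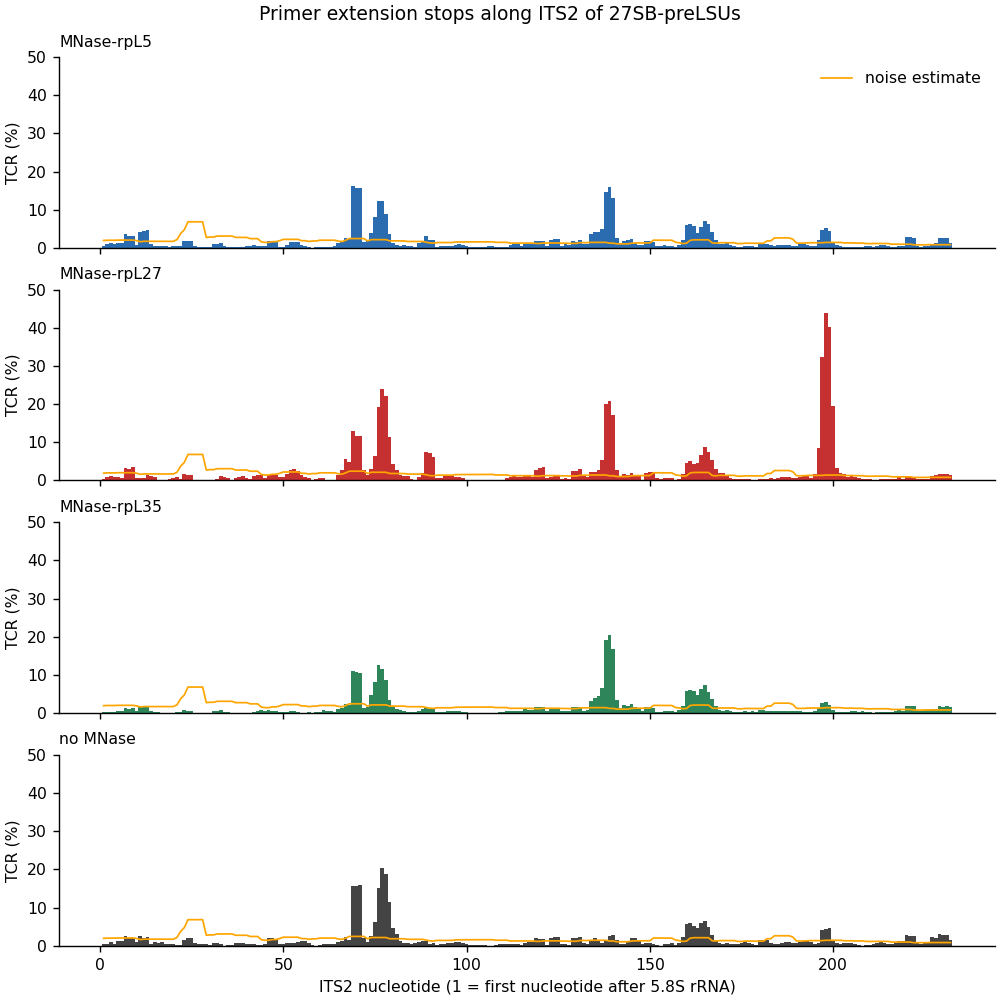
TCR in percent (window of 3 nucleotides, bars) along the 232 nucleotides of ITS2 in 27SB-preLSUs, with 1 panel per library and the noise estimate as an orange line. The peak at nucleotide 198 reaches 43.8% with MNase-rpL27 and at most 5.28% in the other libraries, the peak at 139 is present with the 3 fusions (15.8% to 20.9%) and low with no MNase (2.59%), and the peaks near 70 and 77 are present in all 4 libraries at 10.7% or more.

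The strongest stop of the spacer was seen with MNase-rpL27 at nucleotide 198 (chromosome XII, 455216), in the 3’ part of ITS2. Its window was rank 6 among the 3758 tested nucleotides of that library. At nucleotide 198 alone, the TCR was 3.04% for MNase-rpL5, 26.3% for MNase-rpL27 and 1.55% for MNase-rpL35, against 3.60% with no MNase. At nucleotide 199, the values were 0.981%, 17.8% and 0.560% with the same fusions, against 0.581% with no MNase. Nucleotide 197 gave 1.35% for MNase-rpL5, 7.29% for MNase-rpL27 and 0.743% for MNase-rpL35, against 0.302% with no MNase. The MNase-rpL27 signal was thus spread over 3 adjacent nucleotides. With no MNase, nucleotide 198 was above the noise of 1.42%, with MNase-rpL27 at 7.29 times its value, while 197 and 199 were below the noise. Windows over 2 times no MNase ran without a gap from nucleotide 195 to 203 with MNase-rpL27. In the window centred on 198, MNase-rpL27 was 8.28 times MNase-rpL5 and 15.5 times MNase-rpL35. With MNase-rpL35 the window was lower than with no MNase, 2.83% against 4.45%, and the window centred on 199 was at 0.453 times the library with no MNase.

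On the 5’ side of the spacer, MNase-rpL27 gave a smaller stop at nucleotide 90 (chromosome XII, 455324). The TCR of this nucleotide alone was 1.82% for MNase-rpL5, 5.83% for MNase-rpL27 and 0.693% for MNase-rpL35, against 0.394% with no MNase. Its neighbours were low in all libraries, with at most 0.867% at nucleotide 89 and 0.465% at nucleotide 91, so this stop was narrower than the one at 198. In the window centred on 90, MNase-rpL27 reached 7.08%, which was 5.58 times the noise of 1.27%, against 0.525% with no MNase, which was below it. The window at 198 was 30.9 times its noise. The window centred on 90 was below the minimum of 15% and was not called. With MNase-rpL5 it was 2.09% and with MNase-rpL35 1.19%, on either side of the noise. The lead stops at 90 and 198 lie 108 nucleotides apart. MNase-rpL27 was the highest library at both stops. The study reports a size cutoff for cDNAs in this readout, which left some cleavage sites measurable only by targeted primer extension. From sequencing and targeted primer extension together, it describes cuts with MNase-rpL27 around nucleotides 89 and 198. Cleavage close to C2, seen with each fusion, is described there as less efficient, an order that differs from the TCR values given here. By northern blotting it also detected, with this fusion, a central fragment of the spacer with the size expected from cuts at both places. Whether the size cutoff lowered the TCR at nucleotide 90 was not tested here.

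Site C2 is marked by the table at ITS2 nucleotide 137 (chromosome XII, 455277), and all 3 fusions stopped reverse transcription next to it. The highest nucleotide was 139 (455275), 2 nucleotides further towards 25S rRNA, with a window TCR of 15.8% for MNase-rpL5, 20.9% for MNase-rpL27 and 20.4% for MNase-rpL35, against 2.59% with no MNase. These are ratios to the library with no MNase of 6.10, 8.04 and 7.87. Between the fusions the values were close, with MNase-rpL27 at 1.32 times MNase-rpL5 and 1.02 times MNase-rpL35. The order along the RNA was shared as well. At nucleotide 138, the 3 fusions lay between 3.70% and 4.69%, against 0.116% with no MNase. At the marked nucleotide 137 they had 0.469% for MNase-rpL5, 0.688% for MNase-rpL27 and 0.947% for MNase-rpL35, all below the noise of 1.43%, and the library with no MNase had 0.0579%. At nucleotide 140, on the 25S side, they lay between 1.74% and 2.37%, against 1.18% with no MNase. A further stop on the 5.8S side, at nucleotide 135, had 3.08% for MNase-rpL5, 1.88% for MNase-rpL27 and 2.46% for MNase-rpL35, against 1.11% with no MNase. With no MNase the single values of 1.31% at 139 and 1.18% at 140 were close to the noise of 1.22%. The call at 139 was lost with MNase-rpL5 and with MNase-rpL35 when the stop nucleotide alone was used, where the values were 11.04% and 14.5%. With MNase-rpL5 it was also lost at a minimum TCR of 20% and at 10 times noise and no MNase.

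**Figure D2:**
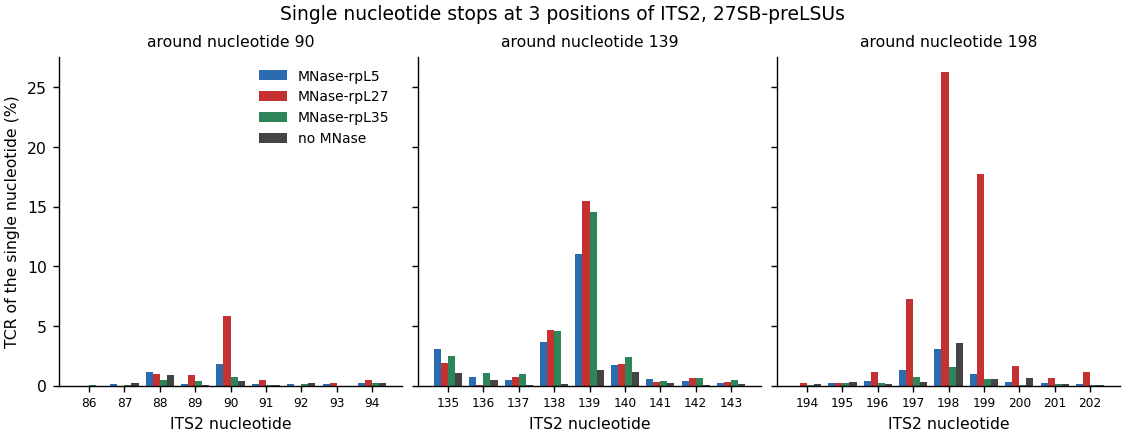
TCR in percent of single nucleotides in 9 nucleotides around ITS2 positions 90, 139 and 198 of 27SB-preLSUs, with a bar for each of the 4 libraries. Around 139 the 3 fusions have bars of 11.04% to 15.5% at the same nucleotide, and around 90 and 198 the bars of MNase-rpL27 stand above the others, up to 26.3%.

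Besides 139 and 140, windows over 2 times the noise in all 4 libraries lay at 69 to 71, 75 to 78, 160 to 162, 164 to 167 and 229. The window at 229, next to 25S rRNA, was 2.60% for MNase-rpL5, 1.75% for MNase-rpL27 and 1.76% for MNase-rpL35, against 3.11% with no MNase. At nucleotide 70 (chromosome XII, 455344), the single nucleotide TCR was 14.6% for MNase-rpL5, 9.65% for MNase-rpL27 and 9.38% for MNase-rpL35, against 14.4% with no MNase. This stop was narrow, since nucleotide 69 gave at most 0.545% and nucleotide 71 at most 1.82%. Around nucleotide 77 (455337) the stops were spread over several nucleotides, and nucleotide 77 alone had 5.55% for MNase-rpL5, 14.1% for MNase-rpL27 and 5.99% for MNase-rpL35, against 9.82% with no MNase. At nucleotide 78 MNase-rpL5 had 2.62%, MNase-rpL27 7.89% and MNase-rpL35 2.31%, against 8.04% with no MNase. The window centred on 77 was 12.3% with MNase-rpL5 and 11.6% with MNase-rpL35, against 20.4% with no MNase, while MNase-rpL27 gave 23.9%. The libraries of MNase-rpL5 and MNase-rpL35 were at 0.471 and 0.469 times no MNase in the window centred on 78. These same libraries had fewer nucleotides of 25S rRNA listed at 0 than the other 2, and the part of the libraries in the values at 77 and 78 was not tested. The windows around 161 (455253) and 165 (455249) were alike in all libraries. At 161 they lay between 5.06% and 6.31% with the fusions, against 6.05% with no MNase, and at 165 MNase-rpL27 had 8.79% and MNase-rpL35 7.27%, against 6.56% with no MNase. The range over the 4 libraries was 1.26 percentage points at 161, 2.24 at 165, 5.03 at 69, 12.4 at 77 and 13.4 at 78. These ranges describe how far the libraries differ at stops that do not need a fusion. The difference of 39.3 points between MNase-rpL27 and no MNase at 198 was larger than each of them, and so were those of MNase-rpL27 (18.3 points) and MNase-rpL35 (17.8) at 139. The 13.2 points of MNase-rpL5 at 139 were just under the range at 78, and the 6.56 points of MNase-rpL27 at 90 were smaller than the ranges at 77 and 78. The range at 78 lies between 2 fusions, MNase-rpL27 (22.2%) and MNase-rpL35 (8.78%). Measured from no MNase, the largest difference at 78 was -9.95 points, with MNase-rpL35, which is smaller in size than the 13.2 points at 139. The window with no MNase was 18.7% at 78 and 0.525% at 90. Close to these stops the fusions added little. The window centred on 75 was 8.15% with MNase-rpL5, against 6.12% with no MNase, the one centred on 74 was 4.70% with MNase-rpL35, against 2.48%, and the one centred on 76 was 19.2% with MNase-rpL27, against 15.03%.

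A less strict count of fusion dependent stops asked for a window above the noise and over 2 times the library with no MNase. In ITS2 this held for 18 nucleotides for MNase-rpL5 (7.83% of 230), 33 for MNase-rpL27 (14.3%) and 12 for MNase-rpL35 (5.22%). Over 5.8S rRNA, ITS2 and 25S rRNA together the shares were 3.01% for MNase-rpL5, 3.62% for MNase-rpL27 and 3.25% for MNase-rpL35. Neighbouring windows overlap, so the nucleotides are not independent. Beside C2, a run from 134 to 143 held 10 of the 12 nucleotides of MNase-rpL35, and a run from 134 to 140 held 7 of the 18 of MNase-rpL5. With MNase-rpL27 the longest run, from 195 to 203, held 9 of the 33. All 3 counts are set against the same library with no MNase. In the other direction, the window with no MNase was above the noise and that of the fusion less than 1 in 2 of it at 8 nucleotides for MNase-rpL5 (3.48%), 9 for MNase-rpL27 (3.91%) and 12 for MNase-rpL35 (5.22%), against 9.53%, 2.37% and 10.3% over all tested nucleotides with the same fusions. ITS2 thus had a higher share of nucleotides with more stops than all tested RNA with each fusion, although with MNase-rpL35 the share in 5.8S rRNA was higher still, at 9.03% of 155 nucleotides. With MNase-rpL5 and MNase-rpL35, ITS2 had a lower share of nucleotides with fewer stops.

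MNase-rpL27 was over 2 times every other library, and above the noise, at 14 nucleotides in 3 runs. Besides the runs at 89 to 91 and 195 to 203, these were nucleotides 67 and 68. The window centred on 67 had 2.69% for MNase-rpL5, 5.74% for MNase-rpL27 and 2.31% for MNase-rpL35, against 2.26% with no MNase. By the same measure, MNase-rpL5 was over 2 times every other library at nucleotides 12 and 13, close to 5.8S rRNA, where the window centred on 13 (chromosome XII, 455401) gave 4.78% for MNase-rpL5, 1.48% for MNase-rpL27 and 1.81% for MNase-rpL35, against 2.33% with no MNase. For MNase-rpL35 there was no such nucleotide. This measure was applied within ITS2 only. Whether these counts are high for the respective library, compared with its other RNA, was not tested. MNase-rpL27 also gave 3.06% in the window centred on 53, against 0.784% with no MNase and a noise of 2.22%. Around nucleotide 143, near C2, the 3 fusions gave 1.70%, 1.75% and 2.11%, against 0.448% with no MNase, and around 150 they gave 1.79%, 2.14% and 1.52%, against 0.599%. Stretches with no window above the noise in any library added up to 138 nucleotides, and the longest of them ran over 32 nucleotides from 14 to 45, followed by 24 nucleotides from 92 to 115 and 14 from 204 to 217.

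When ITS2 was divided into 8 stretches of 29 nucleotides, the chance of a stop anywhere within a stretch differed between stretches and between libraries. From nucleotide 59 to 87 it was 33.3% for MNase-rpL5, 42.8% for MNase-rpL27 and 29.03% for MNase-rpL35, against 40.3% with no MNase. From 117 to 145, which includes C2, it was 28.3%, 31.5% and 30.9% with the fusions, against 12.8% with no MNase. From 175 to 203 it was 10.5% for MNase-rpL5, 48.5% for MNase-rpL27 and 6.76% for MNase-rpL35, against 11.05% with no MNase. From 146 to 174 the libraries were close, between 19.4% and 21.7% with the fusions, against 17.5% with no MNase. The lowest stretch was not the same in all libraries. It was 88 to 116 with MNase-rpL5 (6.64%) and with no MNase (4.21%), 204 to 232 with MNase-rpL27 (7.23%) and 30 to 58 with MNase-rpL35 (3.13%). From 88 to 116, which includes nucleotide 90, MNase-rpL27 reached 12.2%.

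**Figure D3:**
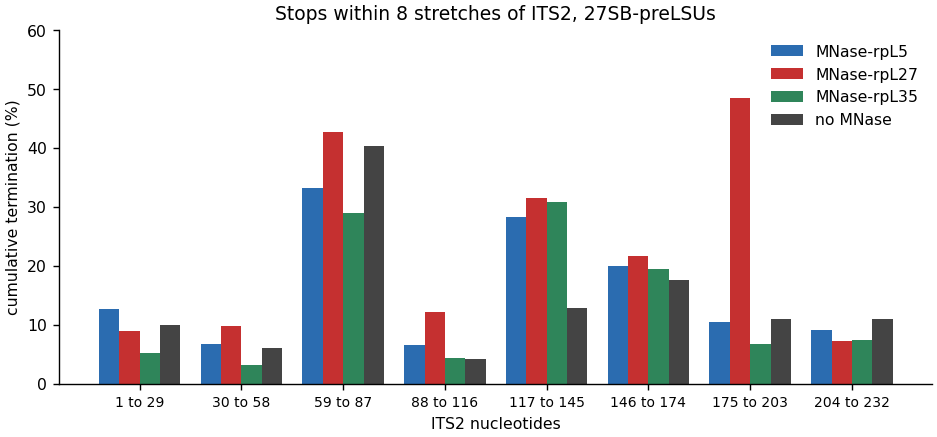
Cumulative termination in percent, the chance of a stop at any of the 29 nucleotides, for 8 stretches of ITS2 in 27SB-preLSUs, with a bar per library. In the stretch with C2 (117 to 145) the 3 fusions lie between 28.3% and 31.5%, above the 12.8% of no MNase, and from 175 to 203 MNase-rpL27 reaches 48.5%.

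Multiplying the chances of passing each nucleotide, from the 25S border back to the 5.8S border, gives the share of reverse transcripts predicted to read through the whole spacer. This was 23.7% for MNase-rpL5, 10.6% for MNase-rpL27 and 29.9% for MNase-rpL35, against 27.5% with no MNase. The chance of a stop anywhere in the spacer was 76.3%, 89.4% and 70.1% with the fusions, against 72.5% with no MNase. With only nucleotides above the noise counted, it was 58.3%, 79.5% and 50.8%, against 50.3%. Part of the predicted loss thus came from nucleotides not above the noise, and MNase-rpL35 was then just above no MNase instead of below it. Counting all nucleotides, 89.6% of transcripts with MNase-rpL27 were predicted to pass nucleotide 200 and 50.4% to pass nucleotide 197. With no MNase the same nucleotides were passed by 88.0% and 84.1%. Of the transcripts predicted to reach nucleotide 142, the share lost by nucleotide 137 was 16.7% for MNase-rpL5, 21.6% for MNase-rpL27 and 21.4% for MNase-rpL35, against 2.87% with no MNase. The chance of a stop in any of the 3 windows centred on 90, 139 and 198 was 21.9% for MNase-rpL5, 58.7% for MNase-rpL27 and 23.6% for MNase-rpL35, against 7.42% with no MNase. Over the remaining 223 nucleotides the fusions had 69.6%, 74.4% and 60.8%, against 70.3% with no MNase, ratios of 0.991, 1.06 and 0.865. Outside these windows, the total with MNase-rpL5 and MNase-rpL27 was thus close to that with no MNase, and with MNase-rpL35 it was lower. The windows were chosen with the values of these same libraries known, so this split follows in part from the choice.

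**Figure D4:**
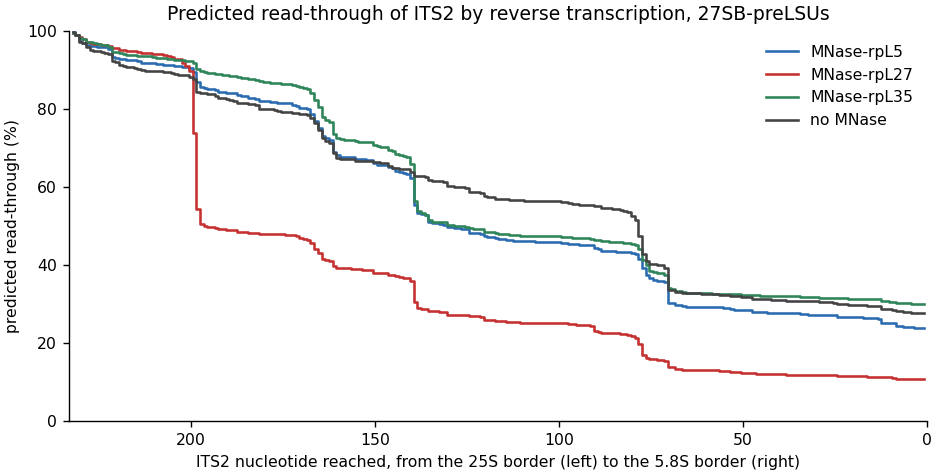
Predicted share of reverse transcripts (percent) that reach each ITS2 nucleotide in 27SB-preLSUs, from the 25S border on the left to the 5.8S border on the right, with a line per library. MNase-rpL27 drops at nucleotide 198, from 89.6% at 200 to 50.4% at 197, and the lines end between 10.6% and 29.9% at nucleotide 1.

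At the border with 5.8S rRNA, few stops were observed in 27SB-preLSUs. The first 10 nucleotides of ITS2 had a cumulative TCR of 5.59% for MNase-rpL5, 5.00% for MNase-rpL27 and 2.22% for MNase-rpL35, against 4.15% with no MNase, and nucleotide 8 was the highest of them, with 2.43%, 2.77% and 0.817% with the fusions, against 1.39% with no MNase and a noise of 2.03%. The last 10 nucleotides of 5.8S rRNA had 8.45% for MNase-rpL5, 8.68% for MNase-rpL27 and 3.84% for MNase-rpL35, against 8.76% with no MNase. Most of this came from nucleotide 155 of 5.8S rRNA, which had 7.65%, 5.82% and 3.33% with the fusions, against 7.63% with no MNase. MNase-rpL35 was lowest on each side of this border.

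At the border with 25S rRNA, the last 10 nucleotides of ITS2 gave 4.26% for MNase-rpL5, 3.68% for MNase-rpL27 and 3.73% for MNase-rpL35, against 5.65% with no MNase. Nucleotide 230 was the highest with MNase-rpL5 (1.53%), with MNase-rpL35 (0.895%) and with no MNase (1.58%), while with MNase-rpL27 it was nucleotide 228 (0.765%). Across the border the highest single stop was stronger in each library. Nucleotide 3 of 25S rRNA had 9.22% for MNase-rpL5, 2.94% for MNase-rpL27 and 7.02% for MNase-rpL35, against 2.80% with no MNase. The values of MNase-rpL5 and MNase-rpL35 were above the others here, and these are also the libraries with fewer zeros in 25S rRNA. The part of the libraries in this difference was not tested.

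**Figure D5:**
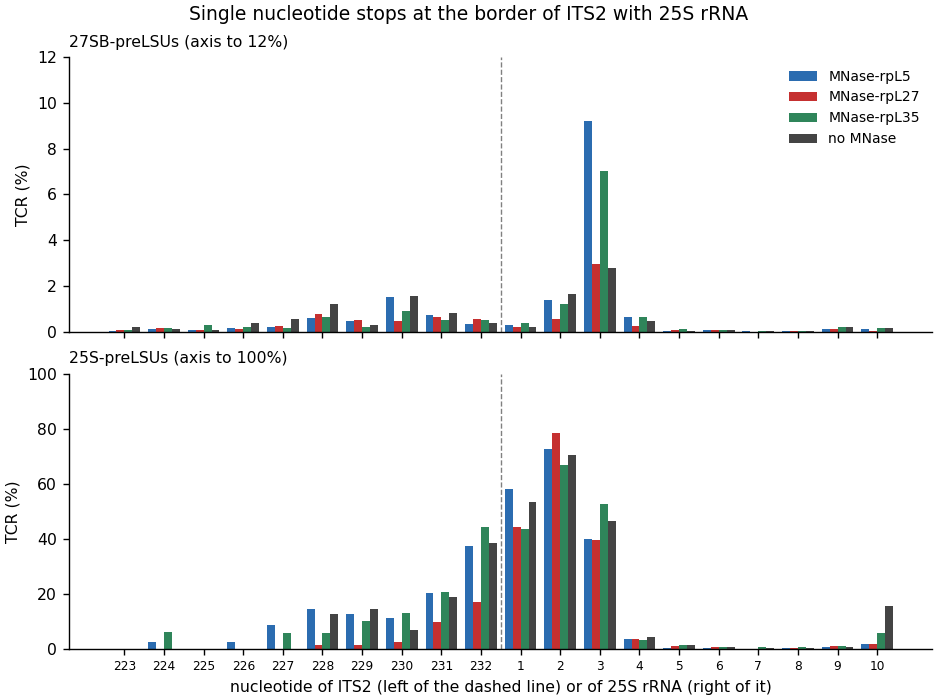
TCR in percent of single nucleotides, for the last 10 nucleotides of ITS2 and the first 10 of 25S rRNA, in 27SB-preLSUs (upper panel, axis to 12%) and 25S-preLSUs (lower panel, axis to 100%), with a bar per library. In 27SB-preLSUs the highest stop is nucleotide 3 of 25S rRNA (2.80% to 9.22%), while in 25S-preLSUs nucleotide 2 reaches 66.7% to 78.6%.

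Mature 25S rRNA carries no ITS2, so in 25S-preLSUs the values of the spacer, apart from those next to 25S rRNA, come from precursor RNA that remained. Of the 232 nucleotides, 3 were listed at 0 in all 4 libraries of 27SB-preLSUs and 171 in all 4 libraries of 25S-preLSUs. The noise had a median of 1.54% in 27SB-preLSUs, against 7.72% in 25S-preLSUs, and the smallest value above 0 was 0.0305% with MNase-rpL5 in 27SB-preLSUs, against 2.33% with MNase-rpL5 in 25S-preLSUs, so values there move in coarser steps. Values at the 3 sites are given as a description. The single nucleotide TCR at 198 was 26.3% with MNase-rpL27 in 27SB-preLSUs and 42.9% in 25S-preLSUs, where MNase-rpL5 had 15.8%, MNase-rpL35 6.25% and no MNase 5.56%. At nucleotide 139 all 4 libraries of 25S-preLSUs had stops, of 25% for MNase-rpL5, 44.4% for MNase-rpL27 and 27.3% for MNase-rpL35, against 18.8% with no MNase, all above the noise of 11.02%. In the window centred on 139 the order differed, with 29.4%, 47.4% and 27.3% with the fusions, against 38.9% with no MNase, so the library with no MNase was not lowest there. At nucleotide 90, MNase-rpL5 had 10%, MNase-rpL27 22.2% and MNase-rpL35 14.3%, against a value listed at 0 with no MNase and a noise of 11.6%. The last nucleotide of ITS2, 232, had 0.362%, 0.553% and 0.536% with the fusions and 0.400% with no MNase in 27SB-preLSUs. In 25S-preLSUs it had 37.3%, 17.1% and 44.2% with the fusions and 38.3% with no MNase, and was the highest of the last 10 nucleotides in each library. Over the last 10 nucleotides of ITS2, 25S-preLSUs with MNase-rpL27 had the lowest cumulative TCR, 28.8%, against 65% with no MNase. Nucleotides 231 and 232, which are part of these totals, lie within 2 nucleotides of the mature 5’ end of 25S rRNA. In 25S-preLSUs nucleotide 2 of 25S rRNA had 66.7% to 78.6%. Whether the stops at 231 and 232 come from spacer RNA or from that end was not tested.

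Across the 232 nucleotides, the single nucleotide profiles of 27SB-preLSUs were ranked alike in all libraries. Among the fusions, Spearman's rho was highest between MNase-rpL5 and MNase-rpL35 (0.776), then between MNase-rpL5 and MNase-rpL27 (0.765) and between MNase-rpL27 and MNase-rpL35 (0.712). Against the library with no MNase it was 0.690 for MNase-rpL5, 0.620 for MNase-rpL27 and 0.644 for MNase-rpL35. Over the 35 nucleotides with a value above the noise in at least 1 library, MNase-rpL5 and MNase-rpL35 remained alike, at 0.887, and MNase-rpL27 with no MNase was the least alike pair, at 0.190. A nucleotide could enter this set through 1 library alone, as 199 did with MNase-rpL27. The order of the pairs in this set therefore depends in part on how it was chosen. These are correlations across nucleotides of 1 RNA, which share its sequence and priming sites and are no replicates.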

How the data were processed

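The deposited values are fractions. Reads had been aligned to the rDNA with Bowtie2 per the study's methods, and the submitters' processing notes name R64 and sacCer3 (no version given in the sources used here). From equal numbers of reads per library, filtered on insert size and alignment quality, the authors estimated unique cDNA fragments by random barcodes and deposited, per nucleotide, the fraction of covering fragments with their end there, beside a noise fraction from simulated fragments that the 4 libraries of a purification share. Equal read numbers do not give equal coverage of a nucleotide, which is unknown.

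Here, fractions were turned into percent, and the chance of passing 3 adjacent nucleotides was multiplied and taken from 100% to give a window. The methods print this formula without the inner subtraction, and the reading that gives a probability was used. Cumulative termination is the same over longer stretches. Noise was taken at the centre. No call was made within 2 nucleotides of a mature 5’ end or of an m1A or m3U mark. Named nucleotides were called sites, the 5 highest windows per library, the 5 highest differences from no MNase per fusion (at least 3 nucleotides apart), C2, cuts named by the study, and borders; others were added after their values were seen. Members and rules were chosen with earlier results of these data known. Calling was tested on simulated data. Since there is no spread between replicates, an alternative was taken to move a value when it changed it by over 1.5 times. Python 3.11.15, numpy 2.4.6, pandas 2.3.3, scipy 1.17.1 and matplotlib 3.10.9 were used.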

Additional observations from a re-analysis of the deposited data

How the results depend on the processing

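Of 57 alternatives, 45 left the count or value within 1.5 times the reported one, none reversed, and 12 moved it further. For the whole spacer, the value compared was cumulative termination, and read-through was not among the values compared. With the stop nucleotide alone, 0 sites were called with MNase-rpL5 and 0 with MNase-rpL35, against 1 each with windows, and nucleotides over 2 times no MNase numbered 6 for MNase-rpL5 (18 with windows), 10 for MNase-rpL27 (33) and 4 for MNase-rpL35 (12), as a single nucleotide has a lower TCR than its window. With MNase-rpL5, 0 sites were called at a minimum of 20% and 0 at 10 times noise and no MNase. At 3 times no MNase, the nucleotides numbered 7 with MNase-rpL5 and 6 with MNase-rpL35. Over nucleotides above the noise, Spearman's rho of MNase-rpL27 was 0.492 to MNase-rpL5, 0.460 to MNase-rpL35 and 0.190 to no MNase (0.765, 0.712 and 0.620 over all nucleotides). Some nucleotides entered this set through MNase-rpL27 alone, and the cause of the lower values was not tested. The 2 sites of MNase-rpL27 were kept in number under all 7 alternatives of the calling rule. The comparisons by base and by predicted pairing were not run, as no genome sequence was used here. No paired analysis was possible because each condition has 1 library. Depth is unknown, which limits values in 25S-preLSUs most.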
